A study of Mus musculus with 4 samples.

Results

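Interferon receptor chains, the Janus kinases bound to them, the transcription factor Stat2 and the inhibitor Socs1 were read in mouse CD8+ T cells with and without a labelled deletion of Irf8. The group is a list of gene symbols, with no threshold on measured values in its rule, and holds 9 of the 49490 genes in the authors' table: Ifngr1, Ifngr2, Ifnar1, Ifnar2, Jak1, Jak2, Tyk2, Stat2 and Socs1. The tested libraries are 2 of CD8+ T cells labelled Irf8 knockout, which the design text calls Irf8-/-. They were compared with 2 libraries of CD8+ T cells labelled WT, whose Irf8 allele the design text gives as Irf8fl/fl. All of the cells came from spleens and lymph nodes and were activated in vitro, and polyadenylated RNA was sequenced. The sources used here do not state how the cells were activated, how the allele was deleted, or how old the mice were.

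Interferon gamma binds the chain IFNGR1, and the signal needs the partner chain IFNGR2. JAK1 sits on IFNGR1 and JAK2 on IFNGR2. Type I interferons, such as the alpha and beta interferons, bind IFNAR2 and IFNAR1, which carry JAK1 and TYK2. The kinases phosphorylate STAT proteins. STAT2 joins IRF9 and another STAT in the complex ISGF3, which binds interferon-stimulated response elements, while SOCS1 is induced by interferons and blocks the kinases. Mouse T helper 1 cells are known to lower the IFNGR2 chain, which limits their answer to interferon gamma.

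The libraries held 58899365 to 59724952 reads. The targeted gene went against the labels: Irf8 had normalized counts of 89508 and 90222 in the libraries labelled knockout, against 6364 and 6081 in the libraries labelled WT. Irf8 was thus 14.4-fold higher where it should be lower, so the groups are called by their labels throughout. An exchange of the labels, which was not tested, would turn every direction given here, and counts per gene do not show whether the Irf8 reads lie in the deleted part. Genes of T cells were present in all libraries, but lower in the libraries labelled knockout. Of 23 T cell identity genes, 1 rose and 21 fell, with a median log2 fold change of -0.59. All 13 markers of plasmacytoid dendritic cells rose, with log2 fold changes of 1.28 to 11.44. Klk1, with the largest, had normalized counts of 8.14 and 3.06 in the libraries labelled WT, and Cd300c had 10.2 and 9.19. Klk1 and Cd300c met the filter of 10 in 2 libraries only through the libraries labelled knockout, so their tests are no independent support for a rise. The summed normalized counts of these 13 markers were 293612 and 292560 in the libraries labelled knockout, against 18033 and 17967 in the libraries labelled WT, and no marker was at 0. In such bulk RNA, fewer cells of a type and less RNA per cell cannot be told apart. The part of these other cells in the Irf8 counts and in the results below was not tested. Separate animals or cultures are not named in the labels, so a p-value here reflects the spread of these libraries alone, and that spread may be technical.

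All 9 interferon pathway genes differed between the groups. Ifngr2, Stat2, Ifnar2, Jak2, Ifnar1 and Tyk2 were higher in the libraries labelled knockout, and Ifngr1, Jak1 and Socs1 were lower, though at 0.02, 0.11 and 0.17 on the log2 scale once libraries were centred on T cell genes. Of all 18378 genes tested, 33.4% passed the same test, 19.9% as higher and 13.4% as lower. The test was limma on log2(normalized count + 1), with Benjamini-Hochberg adjustment over every gene tested and a threshold of 0.05. The groups did not overlap for any of the 9, as for 68.8% of all genes tested. Adjusted p-values of the members lay between 1.56e-05 (Stat2) and 0.00181 (Tyk2). Their median log2 fold change was 0.39, against 0.02 over all genes tested.

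**Figure D1:**
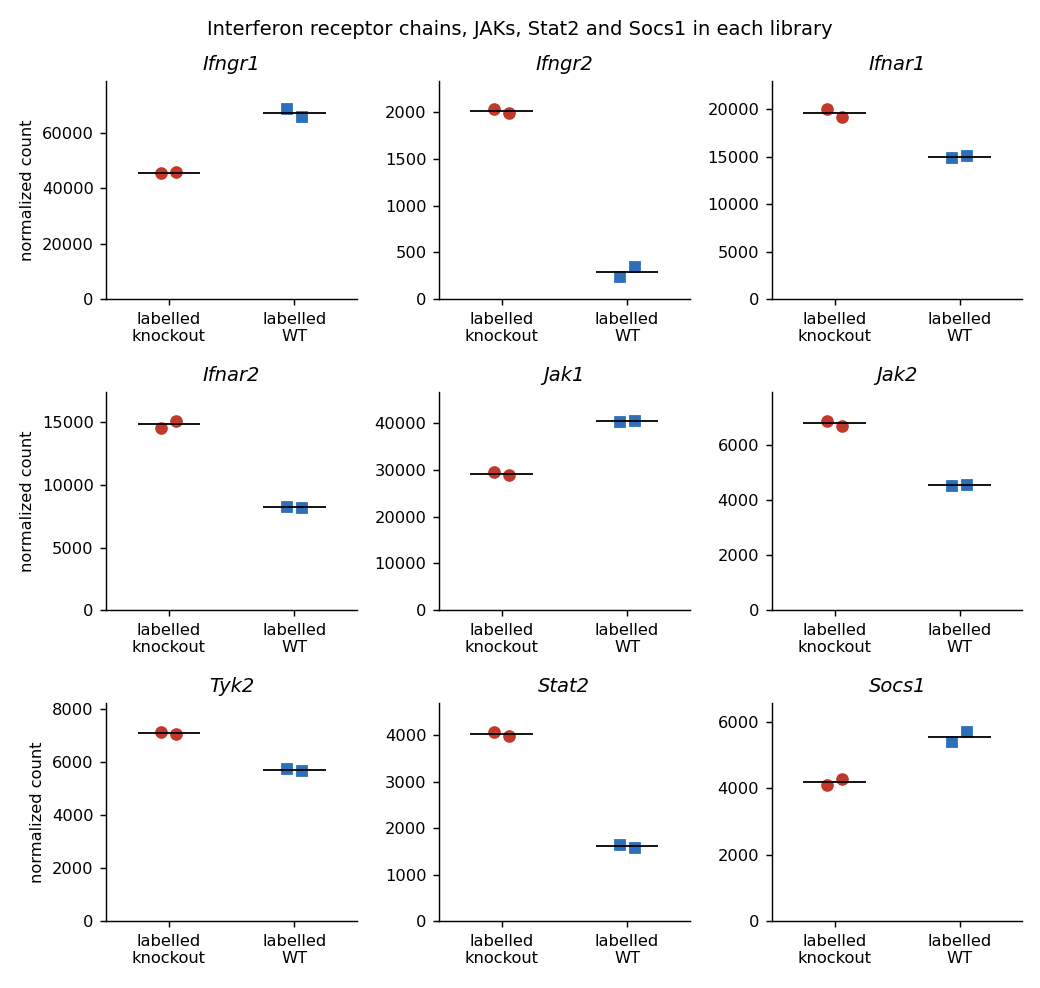
Normalized count of each of the 9 interferon pathway genes in each library, with libraries labelled knockout as circles on the left and libraries labelled WT as squares on the right; horizontal lines are the means of 2 libraries and every axis starts at 0. In no panel do the groups overlap, and Ifngr2 shows the widest gap, at 2030 and 1992 in the libraries labelled knockout and at 235 and 342 in the libraries labelled WT.

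The chains of the interferon gamma receptor moved in opposite directions. Ifngr2 (ENSMUSG00000022965.8, chromosome 16, 91547072 to 91565623, plus strand, mm10), the signalling chain, had normalized counts of 2030 and 1992 in the libraries labelled knockout, against 235 and 342 in the libraries labelled WT. Behind these values stood 2072 and 2046 reads in the libraries labelled knockout and 231 and 335 reads in the libraries labelled WT, where 231 was the fewest of any member. The means were 2011 ± 27.3 in the libraries labelled knockout and 289 ± 75.7 in the libraries labelled WT (SD, n = 2 each), so that Ifngr2 was 6.97-fold higher. Its log2 fold change was 2.82 with a standard error of 0.18 (limma adjusted p = 7.47e-05), the largest of the 9. The authors' deposited table gives -2.80 for Ifngr2 with the sign of WT over knockout.

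Ifngr1 (ENSMUSG00000020009.13, chromosome 10, 19591949 to 19610229, plus strand), the ligand-binding chain, had 45508 and 45803 in the libraries labelled knockout, against 68540 and 65710 in the libraries labelled WT. Its mean in the libraries labelled knockout was 68.0% of the WT-labelled mean. The log2 fold change of Ifngr1 was -0.56 with a standard error of 0.03 (limma adjusted p = 4.43e-05). Per length, Ifngr1 was the most abundant member in both groups. Within each library, the ratio of Ifngr1 to Ifngr2 in normalized counts per kilobase was 39.4 and 40.4 in the libraries labelled knockout, against 512 and 337 in the libraries labelled WT. No library of one group came near the ratios of the other.

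The stretches of 250 bases before the RefSeq start sites (GRCm38.p6) of the 2 genes with the largest rise and fall among the members, Ifngr2 and Ifngr1, and of the 2 members with an interferon-stimulated response element near the start, Stat2 and Socs1, are shown so that they can be read beside the values. Capitals mark matches to the motifs named next, and sequences run 5′ to 3′ on the strand of the gene.
Ifngr2, chr16:91546809-91547058, plus strand: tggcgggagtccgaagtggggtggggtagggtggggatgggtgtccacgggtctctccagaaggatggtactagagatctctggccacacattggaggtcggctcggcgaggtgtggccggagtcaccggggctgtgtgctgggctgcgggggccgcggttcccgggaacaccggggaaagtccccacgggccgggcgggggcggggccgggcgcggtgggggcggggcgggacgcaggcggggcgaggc
Ifngr1, chr10:19591699-19591948, plus strand: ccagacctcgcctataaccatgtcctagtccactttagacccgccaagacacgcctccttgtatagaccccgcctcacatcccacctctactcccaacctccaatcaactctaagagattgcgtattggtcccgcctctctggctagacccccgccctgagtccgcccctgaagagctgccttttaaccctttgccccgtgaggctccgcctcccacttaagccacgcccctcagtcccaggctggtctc
Stat2, chr10:128270248-128270497, plus strand: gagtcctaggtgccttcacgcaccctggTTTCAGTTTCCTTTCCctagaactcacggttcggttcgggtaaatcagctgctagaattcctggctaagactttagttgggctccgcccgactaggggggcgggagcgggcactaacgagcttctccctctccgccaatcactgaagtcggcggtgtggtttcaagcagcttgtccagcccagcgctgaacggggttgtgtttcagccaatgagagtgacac
Socs1, chr16:10785537-10785786, minus strand: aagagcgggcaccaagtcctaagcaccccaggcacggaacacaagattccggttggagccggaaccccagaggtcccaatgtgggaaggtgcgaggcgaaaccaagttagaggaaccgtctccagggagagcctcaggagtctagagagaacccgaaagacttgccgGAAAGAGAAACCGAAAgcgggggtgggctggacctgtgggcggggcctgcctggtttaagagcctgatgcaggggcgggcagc

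Windows of 250 bases before to 50 bases after the start were searched on both strands for 3 motifs. The interferon-stimulated response element, read as GAAA, any 2 bases and GAAA, was found in 2 of the 9 members, Stat2 and Socs1, and in 3.44% of 32851 mouse promoter windows. Socs1 held overlapping copies from bases -83 to -74 and -77 to -68 before its start. Stat2 held a copy on the opposite strand from -222 to -213. The Ets-IRF composite, read as GGAA, any 2 bases and GAAA, a type of element that IRF8 is known to bind with the factor PU.1, was matched in Stat2 from -216 to -207, overlapping the first motif, and in 2.72% of all windows. The gamma-activated site TTCNNNGAA, which STAT dimers bind, was found in Ifnar1 and Ifnar2 and in 8.30% of all windows. Stat2 rose and Socs1 fell, so the members with the first motif did not share a direction. Such matches describe letters and do not show binding.

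Chains of the type I interferon receptor both rose. Ifnar2 (ENSMUSG00000022971.18, chromosome 16, 91372783 to 91405589, plus strand), the high-affinity chain, had 14570 and 15122 in the libraries labelled knockout, against 8250 and 8188 in the libraries labelled WT. It was 1.81-fold higher, with a log2 fold change of 0.85 and a standard error of 0.04 (limma adjusted p = 1.69e-05). Ifnar1 (ENSMUSG00000022967.13, chromosome 16, 91485238 to 91507441, plus strand), the partner chain, had 19995 and 19224 in the libraries labelled knockout, against 14864 and 15097 in the libraries labelled WT. Its rise was smaller, 1.31-fold, or 0.39 on the log2 scale with a standard error of 0.04 (limma adjusted p = 4.08e-04). With each library centred on its median, Ifnar1 was at 0.09 and no longer passed (limma adjusted p = 0.102). The ratio of Ifnar1 to Ifnar2 in normalized counts per kilobase was 1.07 and 0.991 in the libraries labelled knockout, against 1.40 and 1.44 in the libraries labelled WT.

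Among the kinases, Jak1 fell while Jak2 and Tyk2 rose. Jak1 (ENSMUSG00000028530.14, chromosome 4, 101152367 to 101265282, minus strand), the kinase shared by both interferon receptors and by many cytokine receptors of T cells, had 29453 and 28869 in the libraries labelled knockout, against 40186 and 40451 in the libraries labelled WT. The mean in the libraries labelled knockout was 72.3% of the WT-labelled mean, a log2 fold change of -0.47 with a standard error of 0.03 (limma adjusted p = 7.01e-05). Jak2 (ENSMUSG00000024789.13, chromosome 19, 29251828 to 29313080, plus strand), the kinase of IFNGR2, had 6895 and 6703 in the libraries labelled knockout, against 4529 and 4570 in the libraries labelled WT. It was 1.49-fold higher, at 0.58 on the log2 scale with a standard error of 0.04 (limma adjusted p = 1.69e-04).

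Tyk2 (ENSMUSG00000032175.11, chromosome 9, 21104068 to 21131243, minus strand), the kinase of IFNAR1, had 7133 and 7043 in the libraries labelled knockout, against 5747 and 5640 in the libraries labelled WT. Its 1.24-fold rise was the smallest change of the 9, at 0.32 on the log2 scale with a standard error of 0.04 (limma adjusted p = 0.00181). The call ended with median centring (0.02, limma adjusted p = 0.798) and without knockout-labelled replicate 1 (0.31, adjusted p = 0.0561) or 2 (0.33, adjusted p = 0.0531). Ratios between the kinases did not overlap between the groups. Their exact permutation p was 0.33, the smallest that 2 libraries against 2 allow, so the test cannot show a shift. The ratio of Jak1 to Jak2 in normalized counts per kilobase was 4.38 and 4.42 in the libraries labelled knockout, against 9.10 and 9.08 in the libraries labelled WT. The ratio of Jak2 to Tyk2 on the same scale was 0.928 and 0.913 in the libraries labelled knockout, against 0.756 and 0.778 in the libraries labelled WT.

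Stat2 (ENSMUSG00000040033.16, chromosome 10, 128270559 to 128292849, plus strand), the STAT found in ISGF3, had 4067 and 3984 in the libraries labelled knockout, against 1640 and 1574 in the libraries labelled WT. Both libraries of a group lay within a few percent of each other, and the groups stood far apart. Stat2 had the smallest adjusted p of the 9, with a log2 fold change of 1.32 and a standard error of 0.06 (limma adjusted p = 1.56e-05). Socs1 (ENSMUSG00000038037.5, chromosome 16, 10782240 to 10785536, minus strand), the inhibitor of the kinases, had 4095 and 4276 in the libraries labelled knockout, against 5395 and 5698 in the libraries labelled WT. Its level in the libraries labelled knockout was 75.5% of that in the libraries labelled WT, a log2 fold change of -0.41 with a standard error of 0.05 (limma adjusted p = 0.00171). Without knockout-labelled replicate 1 Socs1 had a log2 fold change of -0.37 and did not pass (limma adjusted p = 0.0569), while without replicate 2 it was at -0.44 (adjusted p = 0.0472).

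**Figure D2:**
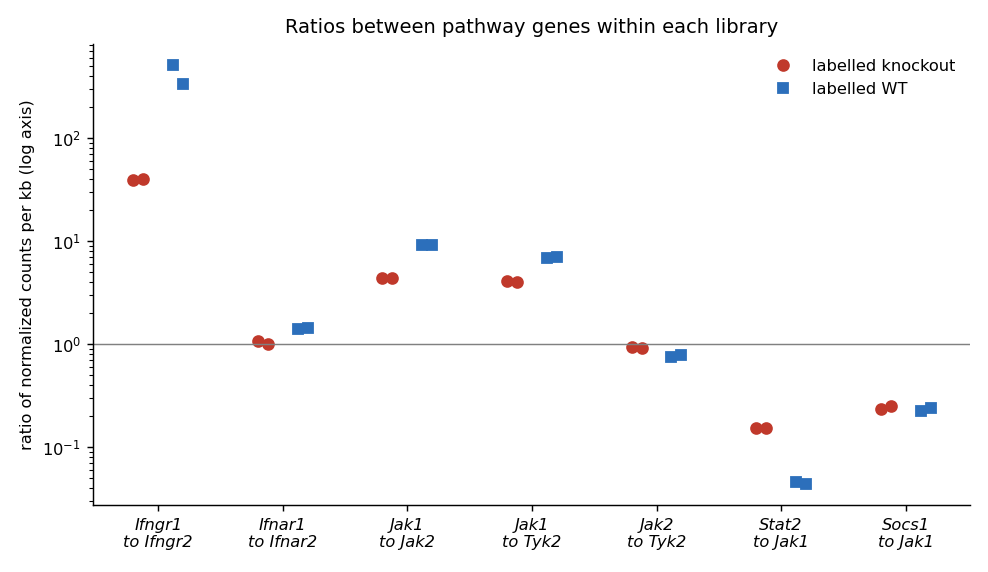
Ratios between pathway genes within each library, in normalized counts per kilobase of the longest coding transcript on a log axis; circles are libraries labelled knockout and squares libraries labelled WT. The ratio of Ifngr1 to Ifngr2 is lower in both libraries labelled knockout (39.4 and 40.4) than in the libraries labelled WT (512 and 337), while the ratio of Socs1 to Jak1 overlaps between the groups.

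A ratio within a library does not depend on how libraries are scaled. Of 7 ratios compared, 6 did not overlap between the groups. Each of these had an exact two-sided permutation p of 0.33, the smallest that 2 libraries against 2 allow (0.389 adjusted over the 7). Among single genes, 68.8% of all genes tested did not overlap either. No such share was computed over other pairs of genes, so the count is not shown to be particular to the pathway. As log2 ratios of normalized counts, not divided by length, the ratio of Ifngr1 to Ifngr2 averaged 4.50 in the libraries labelled knockout and 7.88 in the libraries labelled WT, a difference of -3.38. The ratio of Stat2 to Jak1 averaged -2.86 in the libraries labelled knockout and -4.65 in the libraries labelled WT, a difference of 1.79. Socs1 to Jak1 was the ratio that overlapped, with -2.85 and -2.75 in the libraries labelled knockout, against -2.90 and -2.83 in the libraries labelled WT (exact permutation p = 0.667). With 2 libraries a group, this does not show that Socs1 and Jak1 fell alike.

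Levels per length differed widely among the members. In the libraries labelled knockout, normalized counts per kilobase of the longest coding transcript ran from 542 ± 7.37 for Ifngr2 to 21617 ± 98.8 for Ifngr1 (SD, n = 2 each). In the libraries labelled WT they ran from 77.8 ± 20.4 for Ifngr2 to 31783 ± 948 for Ifngr1 (SD, n = 2 each). The order in the libraries labelled knockout was Ifngr1, Jak1, Ifnar1, Ifnar2, Tyk2, Socs1, Jak2, Stat2 and Ifngr2. Neither Ifnar1 and Ifnar2 (5017 ± 139 and 4872 ± 128) nor Tyk2 and Socs1 (1468 ± 13.2 and 1439 ± 44.1, SD, n = 2 each) differed beyond their spread in that group. In the libraries labelled WT the order was the same save that Socs1, at 1907 ± 73.7 (SD, n = 2), stood above Tyk2. Ifngr2 lay above 57.3% of tested genes with a known length in the libraries labelled knockout and above 29.2% in the libraries labelled WT. Such levels depend on which transcript is used for the length.

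Since T cell genes were lower as a group, the members were also tested against them, with each library centred on the median of the T cell identity list. On that scale Ifngr1, Jak1 and Socs1, which fell under the deposited scaling, had log2 differences of 0.02 ± 0.07, 0.11 ± 0.07 and 0.17 ± 0.07 (standard error). Their limma adjusted p-values were 0.813, 0.189 and 0.0604. So none of these 3 was shown to move apart from the T cell genes. Ifngr2, Stat2, Ifnar2, Jak2, Ifnar1 and Tyk2 stood above the T cell genes by 3.40, 1.90, 1.43, 1.16, 0.96 and 0.89 on the log2 scale (limma adjusted p between 4.05e-07 and 1.96e-05). Under this scaling the median of all genes was 0.59 on the log2 scale. Of all genes tested, 64.4% were then higher and 0.664% lower, so most genes stood above the T cell list and the count of 6 members is near that background.

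**Figure D3:**
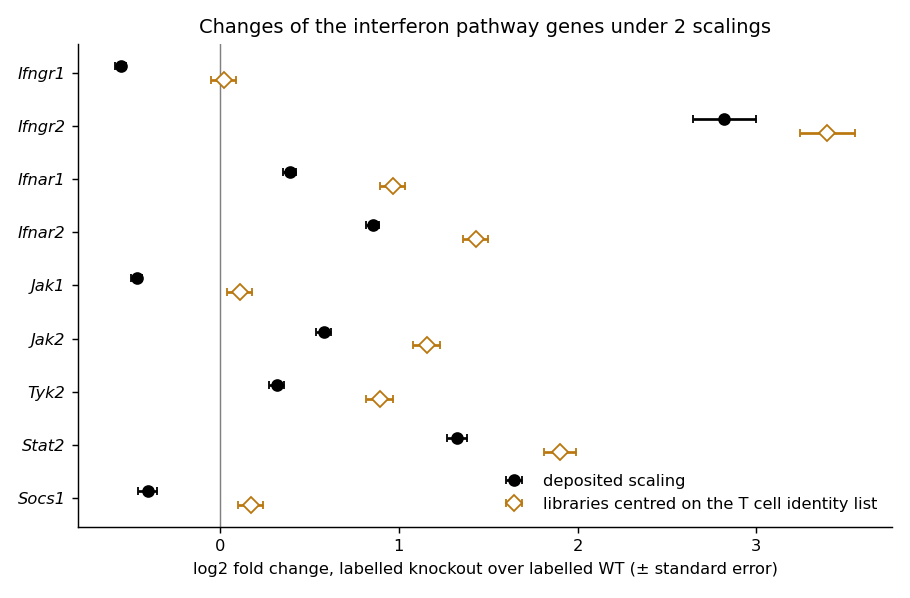
Log2 fold change of each interferon pathway gene, libraries labelled knockout over libraries labelled WT, with standard errors from limma; filled circles use the authors' scaling and open diamonds use libraries centred on the T cell identity list. Ifngr1, Jak1 and Socs1 move from below 0 (-0.56, -0.47 and -0.41) to values near 0 (0.02, 0.11 and 0.17). The centring adds the same upward shift to every gene, so the other 6, already above 0, could only stay above 0.

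Other genes of the pathway moved in both directions. Jak3, the kinase of the common gamma chain, fell by 0.22 on the log2 scale (limma adjusted p = 0.00368), a call lost without knockout-labelled replicate 1 (-0.20) or 2 (-0.23). Centred on T cell genes, Jak3 was called higher instead (0.36, limma adjusted p = 0.00140). Of 5 other STAT genes, Stat5a, which acts below interleukin-2, rose by 0.47 and Stat4, which acts below interleukin-12, fell by 0.47, with Stat4 at 0.11 and not called after centring on T cell genes. Stat3, Stat5b and Stat6 had log2 fold changes of 0.08, -0.07 and -0.13 and did not pass. Stat6 lay close to the threshold (limma adjusted p = 0.0535) and passed as lower under 8 alternatives, edgeR and DESeq2 among them, but as higher after centring on T cell genes (0.45). Of the 5 genes, median centring gave 1 higher and 4 lower, and centring on T cell genes 4 higher. Irf9, the DNA-binding subunit of ISGF3 and partner of STAT2, had normalized counts of 5051 and 4705 in the libraries labelled knockout, against 4876 and 4640 in the libraries labelled WT. The groups overlapped for Irf9, and its log2 fold change was 0.04 with a standard error of 0.06 (limma adjusted p = 0.669).

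Of 7 other SOCS genes, 2 rose and 1 fell. Socs2 had 1947 and 1876 in the libraries labelled knockout, against 812 and 761 in the libraries labelled WT, 2.43-fold higher. Socs3 rose by 0.34, a call that median centring ended (0.04), and Cish, a target of STAT5 signals that feeds back on cytokine receptors, fell by 0.74. After centring on T cell genes Cish was at -0.16 and no longer passed (limma adjusted p = 0.0746), and 6 of the 7 were higher. Socs4 to Socs7 did not pass. Among 13 phosphatases and other inhibitors, Ptpn6 (SHP-1), Ptpn1, Sh2b3 and Cbl rose, by 0.63, 0.60, 1.13 and 0.30, and Ptpn2, which removes phosphate from JAK1 and STATs in T cells, fell by 0.32. These counts depend on the scaling, with 3 higher and 9 lower of the 13 under median centring and all 13 higher after centring on T cell genes, Ptpn2 included (0.26, limma adjusted p = 0.0125). Cbl and Ptpn2 no longer passed without knockout-labelled replicate 1 (0.26 and -0.30) or 2 (0.33 and -0.34). Usp18, which blocks JAK1 at IFNAR2, had a log2 fold change of 0.04 under the authors' scaling and did not pass. Beside these inhibitors, the 13 plasmacytoid dendritic cell markers rose as given above.

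Of 5 other class II cytokine receptor chains tested, Il10ra fell by 0.24 on the log2 scale (limma adjusted p = 0.00277). The Il10ra call was lost without knockout-labelled replicate 1 (-0.24) or 2 (-0.24), and Il10ra was called higher after centring on T cell genes (0.34, limma adjusted p = 0.00196). Il10rb had a log2 fold change of -0.13 and did not pass. It passed as lower under median centring (-0.43), with upper-quartile factors in edgeR (-0.21) and in DESeq2 (-0.14). After centring on T cell genes it was called higher instead (0.45).

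Interferon ligands were sparse except Ifng. Ifng, the ligand of the receptor whose chains diverged, had 10476 and 9543 in the libraries labelled knockout, against 16057 and 17060 in the libraries labelled WT, and fell by 0.73 on the log2 scale (limma adjusted p = 1.94e-04). After centring on the T cell list its difference was -0.15 and did not pass. Of 13 ligands, 8 had 0 reads in all 4 libraries, where a count of 0 allows at most 3 reads a library (95%, counting error only). Ifnk had 28 and 32 reads in the libraries labelled knockout, against 0 and 0 in the libraries labelled WT. It passed as higher (limma adjusted p = 0.00603). Ifnk met the filter on low values only through the libraries labelled knockout, so this test is no independent support for a rise. The call was lost with a pseudocount of 0.1 (limma adjusted p = 0.0689) and without knockout-labelled replicate 1 (5.01) or 2 (4.83, log2). Ifnb1 had 12 and 5 reads in the libraries labelled knockout, against 0 and 0 in the libraries labelled WT, and was below the filter on low values.

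Targets of the pathway did not share a direction under the authors' scaling. Of 23 type I interferon target genes, 5 rose and 12 fell, with a median log2 fold change of -0.34, against 0.02 over all genes. Median centring gave 3 higher and 16 lower of these 23, and centring on T cell genes gave 10 higher and 1 lower, so the balance of directions turned with the scaling. Rtp4 had 1557 and 1567 in the libraries labelled knockout, against 2669 and 2843 in the libraries labelled WT. Oas3, a sensor of viral RNA, fell by 0.70, a call that centring on T cell genes ended (-0.13). Bst2, also a marker of plasmacytoid dendritic cells, rose by 1.86, and Ifi44 rose 10.1-fold at low counts. Without knockout-labelled replicate 1, 3 rose and 8 fell, and without replicate 2, 2 rose and 8 fell. Of 17 interferon gamma target genes, 5 rose and 6 fell, with a median of -0.01. Without knockout-labelled replicate 1 or 2 these counts were 3 and 2. Ciita, the activator of class II antigen presentation genes, is also on the list of conventional dendritic cell markers. It rose by 4.21 and Irf1 by 0.57, while Nlrc5 fell by 0.41 and Igtp by 0.43. Median centring gave 4 higher and 12 lower of these 17, while centring on T cell genes gave 12 higher and left Nlrc5 (0.16) and Igtp (0.15) uncalled.

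**Figure D4:**
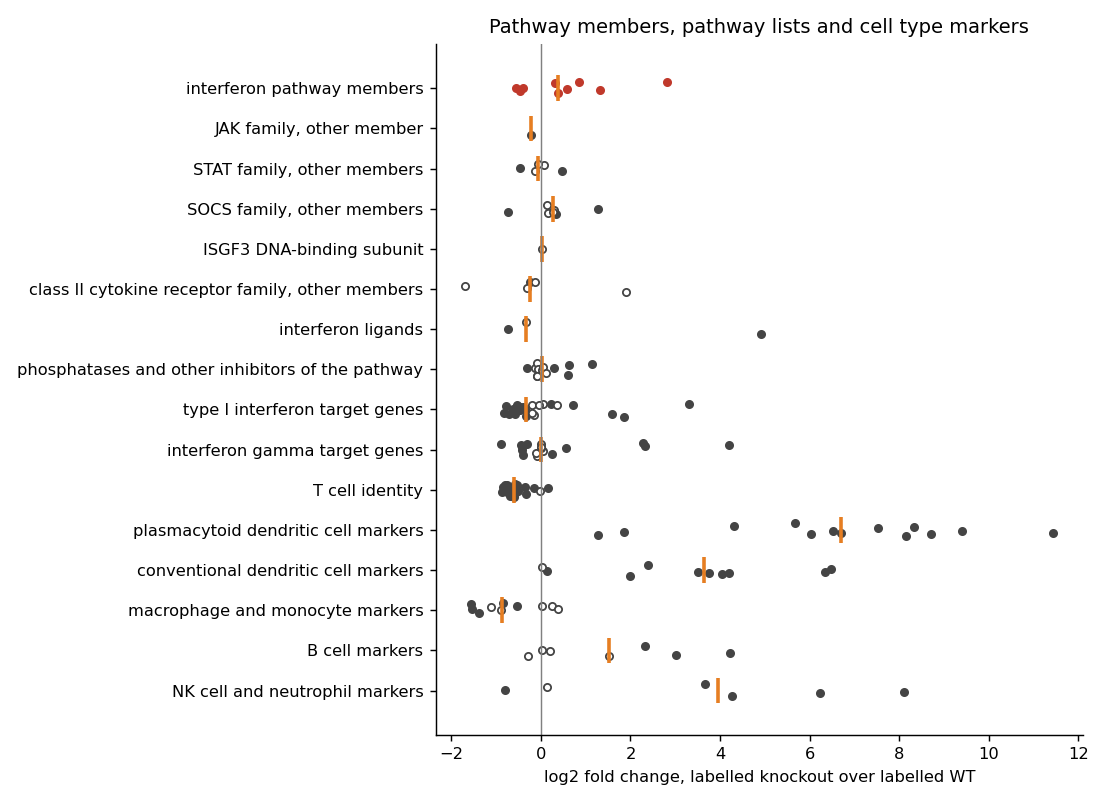
Log2 fold change of each tested gene, libraries labelled knockout over libraries labelled WT, for the 9 interferon pathway genes (red), lists of related pathway genes and lists of cell type markers; filled points passed the limma test, open points did not, and orange bars are medians. Points of genes with 0 reads in the libraries labelled WT, such as Ifnk, depend on the pseudocount of 1. The plasmacytoid dendritic cell list has a median of 6.71 and the T cell identity list of -0.59.

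Markers of other cells moved with the same comparison. Siglech and Ccr9, genes of plasmacytoid dendritic cells, were 418-fold and 51.0-fold higher in the libraries labelled knockout. Of 10 conventional dendritic cell markers, 9 rose, with H2-Aa 16.5-fold and H2-Ab1 13.6-fold higher. Their summed normalized counts were 179245 and 184922 in the libraries labelled knockout, against 23980 and 23840 in the libraries labelled WT. Most of the sum in the libraries labelled knockout came from H2-Aa (77125 and 77689) and H2-Ab1 (69498 and 74401). Xcr1, with a log2 fold change of 0.02, was the marker of this list that did not pass. Of 10 macrophage and monocyte markers, 5 fell, among them C1qb by 1.53 and Lyz2 by 0.54 on the log2 scale (0.04 for Lyz2 after centring on T cell genes, where 3 of the 10 were higher and 3 lower), and 1 fell without knockout-labelled replicate 1 or 2. Of 7 B cell markers tested, 3 rose (2 without knockout-labelled replicate 1 or 2), including Ighm by 2.32 and Cd79b by 3.02 on the log2 scale, and Ebf1 had 0 reads in both libraries labelled WT. Their summed normalized counts were 38450 and 38312 in the libraries labelled knockout, against 7913 and 7516 in the libraries labelled WT. Of 6 NK cell and neutrophil markers tested, 4 rose, including S100a9 by 3.67. Among the NK cell markers, Ncr1 had a log2 fold change of 0.14 and did not pass. Klrb1c fell by 0.80, but was at -0.22 and not called after centring on T cell genes. The neutrophil marker Ly6g was below the filter, with 5 and 0 reads in the libraries labelled knockout and 0 and 6 in those labelled WT. Mpo and Elane had 0 reads in both libraries labelled WT. Ebf1, Mpo and Elane met the filter on low values only through the libraries labelled knockout. The part of these other cells in the changes of the 9 genes was not tested.

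Ifnar2, Ifnar1 and Ifngr2 lie beside each other on chromosome 16, with Il10rb between Ifnar2 and Ifnar1. Il10rb had 8744 and 8407 in the libraries labelled knockout, against 9115 and 9662 in the libraries labelled WT. It did not pass (log2 fold change -0.13, limma adjusted p = 0.0772), but was called under some alternatives, as given above. On the far side of Ifngr2, Tmem50b, a membrane protein gene 8880 bases away, rose 2.19-fold, with 2604 and 2564 in the libraries labelled knockout, against 1212 and 1147 in the libraries labelled WT (limma adjusted p = 5.95e-05). Dnajc28 rose by 1.57 and Gart, an enzyme of purine synthesis, by 0.20. Both calls were lost without knockout-labelled replicate 1 (limma adjusted p = 0.179 and 0.118) or 2 (adjusted p = 0.213 and 0.165), and Gart turned to -0.10 under median centring. Of 8 genes tested within 100 kilobases of Ifngr2, 4 were higher, Ifnar1 among them. Ifnar2 shares bases with Gm21970, which held at most 75.9 normalized counts in any library, and Tyk2 with 1700084C06Rik on the opposite strand, whose highest value was 10.2. Jak1 shares bases with Raver2, whose highest value was 253, and with Gm24468 and Gm12785, whose highest values were 1.02 and 3.05. Gm21970 and Ifnar2 lie on the same strand, as do Gm12785 and Jak1, so strand cannot assign the reads that they share. Raver2 and Gm24468, like 1700084C06Rik, lie on the strand opposite their member, and whether the counting used strand is not stated. So reads in these overlaps cannot be assigned with certainty.

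**Figure D5:**
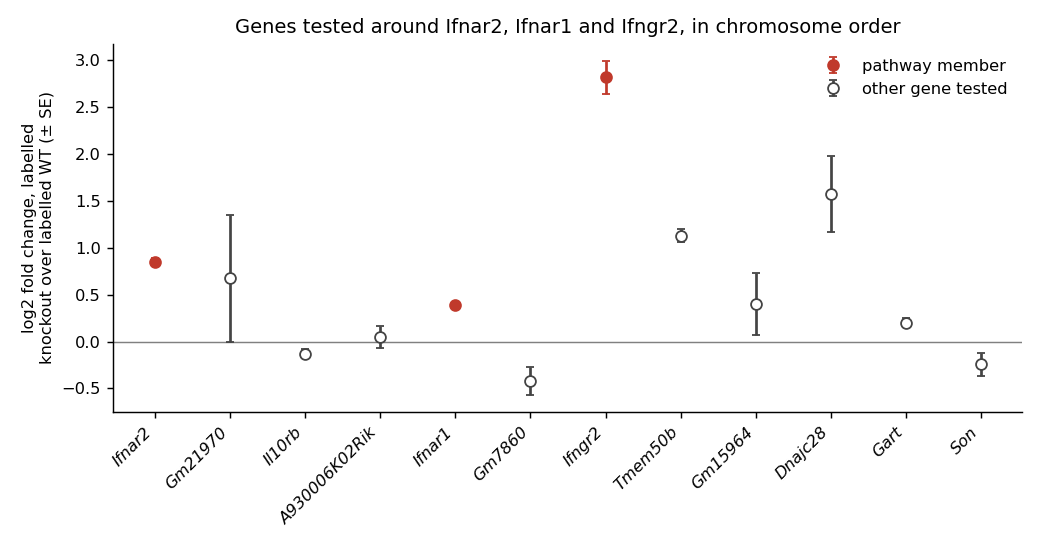
Log2 fold change with its standard error from limma, libraries labelled knockout over libraries labelled WT, for the 12 genes tested in and around the interferon receptor cluster of mouse chromosome 16, in chromosome order; red points are members. Ifngr2 (2.82) and its neighbours Tmem50b (1.13) and Dnajc28 (1.57) stand above Ifnar1 (0.39) and Il10rb (-0.13).

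The genes with profiles most like those of Ifngr2 and Ifngr1 were found by the Euclidean distance between log2 profiles over the 4 libraries, each centred on its own mean. For Ifngr2 these were Rgmb, Ctnnd2 and Sema4b, at distances of 0.04, 0.12 and 0.13 and with folds of 7.28, 7.27 and 6.99. Rgmb had 179 and 177 in the libraries labelled knockout, against 19.3 and 29.6 in the libraries labelled WT. For Ifngr1 the nearest were Nbeal2, Il2rb and Acp5, at distances of 0.01, 0.02 and 0.02. Il2rb, the beta chain of the interleukin-2 receptor, had 49872 and 51158 in the libraries labelled knockout, against 75613 and 72569 in the libraries labelled WT. With 4 libraries in 2 groups, such likeness rests mostly on the group difference.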

How the data were processed

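RNA of 4 libraries was compared, 2 labelled Irf8 knockout and 2 labelled WT, grouped by sample titles. Per the submitters' processing notes, the tools were DESeq2, StringTie 2.1.4, HISAT2 2.2.1 and Trim Galore 0.4.4, and the build was mm10. Their settings and annotation were not given in the sources used here. What the authors deposited, per the file headers, is a normalized count for each gene and library (a signal with decimals). Their table also holds log2 fold changes with standard errors, a Wald score, and p-values, deposited as WT over knockout. Values were whole multiples of 1 step per library (tolerance 0.01 reads) for 100.0% of values above 0, so reads could be recovered. On them edgeR with TMM factors called 3691 genes higher and 2652 lower, and all 9 members, while the limma test below called 3662 and 2469.

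The test was limma 3.58.1 (eBayes with trend and robust variance, no covariate) on log2(normalized count + 1). Kept were 18378 genes that reached 10 in 2 or more libraries. The design called for limma where the table held normalized values. Fold changes on this scale understate low genes. The filter was passed by all 9 members. Folds are ratios of group means. P-values were two-sided. Sampling noise was exceeded within both groups (chi-square over its degrees of freedom 6.75 between the libraries labelled knockout and 23.6 between those labelled WT). The tests were tried on simulated data. Gene coordinates and lengths came from GENCODE M21 (GRCm38, the assembly of mm10), matched by symbol for 95.2% of names, and promoters from RefSeq, matched for all 9. Spreadsheet conversion had turned 24 names into dates, and those genes were not named.

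The members were set by symbol, but they and the lists were chosen with earlier results of these data known. Named were the members, Irf8, genes of lists of up to 13 members, from longer lists and marker lists the 2 risen and 2 fallen genes of smallest adjusted p at most, neighbours within 100 kilobases, and the 3 nearest profiles among genes with a mean of at least 100. Ebf1 and Elane fall outside this rule and were named after their values were seen, as markers with 0 reads in both libraries labelled WT. Xcr1, Ncr1 and Ly6g also fall outside it and were named after their values were seen, as markers not called or not tested. The same holds for Klk1 and Cd300c, named for how they met the filter. Alternatives were median and T cell centring, other pseudocounts and filters, leaving out each library in turn, a replicate block, and edgeR 4.0.16, DESeq2 1.42.0 and limma-voom on the recovered reads.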

Additional observations from a re-analysis of the deposited data

How the results depend on the processing

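All 9 members kept their direction under 15 alternatives, which leave out the centring on T cell genes. Their ranges were 2.52 to 3.09 for Ifngr2, 1.02 to 1.35 for Stat2, 0.55 to 0.88 for Ifnar2, 0.28 to 0.60 for Jak2, 0.09 to 0.42 for Ifnar1, 0.02 to 0.33 for Tyk2, -0.86 to -0.53 for Ifngr1, -0.77 to -0.45 for Jak1 and -0.71 to -0.37 for Socs1. Median centring moved the median of all genes by -0.30 and left 4 members higher and 3 lower. Over all genes it gave 2389 higher and 7210 lower. The share of calls that were higher was then 24.9%, against 59.7% as reported and 47.0% with upper-quartile factors in edgeR. Centring on T cell genes gave 11840 higher and 122 lower, 99.0% higher, and 6 members higher and 0 lower. Leaving out 1 library gave 1309 to 4137 genes higher and 630 to 2759 lower, with the low counts without a library labelled knockout (1358 and 694 without replicate 1, 1309 and 630 without replicate 2). Members called were then 7 and 8. Among the single genes recomputed under every alternative, which are not all genes of the longer lists or all neighbours, signs that turned under the T cell centring with a call on either scale were Ifngr1 0.0206, Jak1 0.11, Socs1 0.17, Jak3 0.36, Stat4 0.11, Stat5b 0.51, Stat6 0.45, Il10ra 0.34, Il10rb 0.45, Ptpn2 0.26, Ptpn11 0.45, Ptprc 0.50, Pias1 0.49, Pias2 0.50, Pias4 0.50, Nlrc5 0.16, Igtp 0.15, Lyz2 0.0372, Rbms2 0.29, Nbeal2 0.0226, Il2rb 0.024 and Acp5 0.0063 (log2). Those under median centring were Stat3 -0.22, Irf9 -0.26, Pias3 -0.28, Usp18 -0.26, Cbl -0.0023, Trim28 -0.18, Tcf7 -0.13, Gart -0.10 and Cd274 -0.0416. Uncalled values turned too and are not listed. These turns follow from the shift that each centring adds. Replicate numbers are not said to mark pairs, and deviations of same-numbered libraries had a correlation of 0.02. With the replicate block, 3415 genes were higher and 2168 lower, all 9 members were called, and the difference of Socs1 from the T cell genes, 0.17, passed (limma adjusted p = 0.0358, against 0.0560 to 0.235 under the others and 0.0604 as reported). The ratios moved by less than the replicate spread with pseudocounts of 0.1 and 10. They also did so without each library, but with 2 libraries a group that outcome is fixed in advance and does not show that the ratios are stable. Ifngr2, with 231 and 335 reads in the libraries labelled WT, is the member that depth limits most.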

Other observations

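Other genes beside the members gave values in both directions, all within 100 kilobases. Next to Jak2 on chromosome 19 lie the genes of both ligands of the inhibitory receptor PD-1. Cd274 (PD-L1) had normalized counts of 3085 and 3076 in the libraries labelled knockout, against 2717 and 2440 in the libraries labelled WT, and rose by 0.26 on the log2 scale (limma adjusted p = 0.0299). Pdcd1lg2 (PD-L2) had 723 and 803 in the libraries labelled knockout, against 1132 and 1413 in the libraries labelled WT, and had a log2 fold change of -0.73 (limma adjusted p = 0.00625). Both calls were lost without knockout-labelled replicate 1 (adjusted p = 0.195 and 0.115) or 2 (0.195 and 0.0869), and that of Cd274 also without WT-labelled replicate 2 (0.0648), with no filter (0.0567), with upper-quartile factors in edgeR (0.0813) and under median centring, where its sign turned (-0.0416). Pdcd1lg2 was at -0.15 and not called after centring on T cell genes (limma adjusted p = 0.277). Of 5 genes tested beside Jak2, 1 was higher and 2 lower.

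Beside Tyk2, Pde4a, which breaks down cyclic AMP, was 2.13-fold higher (limma adjusted p = 6.45e-04), a call lost without knockout-labelled replicate 2 (adjusted p = 0.0526). Fdx1l had a log2 fold change of -0.95 (limma adjusted p = 0.00137), and Cdc37, 1979 bases from Tyk2, of -0.08. Of 13 genes tested beside Stat2, 3 were higher and 1 lower. Cnpy2, Timeless and Rbms2 had log2 fold changes of 0.60, 0.51 and -0.28 (limma adjusted p = 0.00426, 0.0160 and 0.0196). These calls were lost without knockout-labelled replicate 1 (0.59, 0.46 and -0.31) or 2 (0.61, 0.56 and -0.26). Timeless also lost its call under median centring (0.21), and Rbms2 was called higher after centring on T cell genes (0.29). Apof, an apolipoprotein gene, lies 406 bases from Stat2. It had 54 and 45 reads in the libraries labelled knockout, against 0 and 0 in the libraries labelled WT. Apof passed as higher (limma adjusted p = 0.00200), but met the filter on low values only through the libraries labelled knockout. That call was lost without knockout-labelled replicate 1 (5.49) or 2 (5.75, log2). Il23a, on the same stretch, had normalized counts of 10.8 and 0 in the libraries labelled knockout, against 15.3 and 6.13 in the libraries labelled WT. The 4 genes tested beside Socs1 did not pass, with limma adjusted p-values of 0.120 to 0.784.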
